A study of Caenorhabditis elegans with 2 samples.

Results

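The regions described here were the AKIR-1::GFP ChIP-seq peaks inside both piRNA gene clusters of Caenorhabditis elegans chromosome IV. A member was any peak of the pooled list whose summit, the base of highest signal, lay at 4.5 to 7.0 Mb (cluster 1) or at 13.5 to 17.2 Mb (cluster 2) on assembly WBcel235 (ce11). The rule used position alone and found 842 peaks in cluster 1 and 910 in cluster 2, which made 1752 of the 30000 pooled peaks and of the 4886 on chromosome IV. The other 3134 peaks of chromosome IV, spread over 11.3 Mb, served for comparison. Most members were weak calls: the deposited q-values, which estimate the false discovery rate at a peak's strength, had a median of 0.719 in cluster 1 and 0.726 in cluster 2. A q-value of at most 0.1 was given to 9 members of cluster 1, 8 of cluster 2 and 64 peaks of the rest, so every share over all members is mainly a share of peaks of low certainty. The study was a chromatin immunoprecipitation with sequencing (ChIP-seq), in which DNA fragments held by a tagged protein are recovered with an antibody and sequenced. All samples formed 1 group with 2 biological replicates, numbered 3 and 4, so that no treatment or genotype was compared and no test over samples was possible. The animals were strain IG1654, carrying the transgene frSi12[pNP157(akir-1p::AKIR-1::GFP)] on chromosome II, in which the akir-1 promoter drives AKIR-1 with a C-terminal GFP-FLAG tag. They were mixed-sex young adults of 70 hours, grown from larvae starved at L1 after bleaching, and the antibody was against GFP. Whole animals were used, so the binding of every tissue that expresses the transgene is mixed in 1 signal, and the state of the animals' own akir-1 gene is not given in the sources used here.

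AKIR-1 is the nematode akirin, a nuclear protein that has no known DNA-binding domain and is thought to bridge transcription factors and chromatin remodellers; in worms it is best known for antimicrobial gene expression in the epidermis. The piRNAs of C. elegans, also called 21U-RNAs, are small germline RNAs of 21 bases that guide the Piwi protein PRG-1 to foreign and self transcripts. Each piRNA of the main class is transcribed from its own tiny unit, and many of these units carry an upstream element, the Ruby motif, with the core letters CTGTTTCA. SNPC-4, PRDE-1 and some, but not all, of the TOFU proteins act at these upstream sequences in the germline. Most of the units lie in both clusters on chromosome IV, scattered between and within ordinary genes.

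To show what lies under the strongest summits near piRNA units, the 60 bases upstream of the start and the 21 bases of the piRNA itself are printed for the 4 piRNA genes per cluster that lie within 100 bp of the strongest pooled summits. Sequences are from the RefSeq assembly WBcel235, 5′ to 3′ on the strand of the piRNA gene, and capitals mark CTGTTTCA. In cluster 1 these are 21ur-5229 (chrIV:5967029-5967109, plus strand), 21ur-11261 (chrIV:5364359-5364439, plus), 21ur-11489 (chrIV:5101495-5101575, minus) and 21ur-9844 (chrIV:6853566-6853646, minus). In cluster 2 these are 21ur-582 (chrIV:16040612-16040692, minus), 21ur-11953 (chrIV:14470496-14470576, plus), 21ur-10453 (chrIV:17166435-17166515, minus) and 21ur-8848 (chrIV:15305068-15305148, plus).
21ur-5229: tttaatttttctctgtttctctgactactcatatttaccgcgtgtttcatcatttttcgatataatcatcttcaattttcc
21ur-11261: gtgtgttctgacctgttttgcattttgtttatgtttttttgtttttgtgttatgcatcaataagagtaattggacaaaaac
21ur-11489: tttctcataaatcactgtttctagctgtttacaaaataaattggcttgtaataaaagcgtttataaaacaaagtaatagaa
21ur-9844: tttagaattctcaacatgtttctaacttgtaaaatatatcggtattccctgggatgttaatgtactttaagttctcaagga
21ur-582: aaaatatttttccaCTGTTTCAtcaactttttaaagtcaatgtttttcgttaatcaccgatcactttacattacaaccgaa
21ur-11953: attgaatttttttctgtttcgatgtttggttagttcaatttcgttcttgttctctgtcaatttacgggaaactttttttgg
21ur-10453: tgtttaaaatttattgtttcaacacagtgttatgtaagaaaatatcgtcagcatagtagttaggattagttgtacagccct
21ur-8848: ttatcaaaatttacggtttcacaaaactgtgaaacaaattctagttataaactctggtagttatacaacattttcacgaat
Of these 8 loci, the full core was found in the 60 upstream bases of 21ur-582 alone. Only the exact 8 letters were searched and marked. Copies that differ from the core by 1 letter can be read upstream of 21ur-5229, 21ur-11489, 21ur-11953 and 21ur-10453.

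The windows under the strongest member peaks are printed for contrast: 101 bases centred on the summits of the top 3 pooled peaks of each cluster, on the plus strand, named by their rank among all pooled peaks. The cluster 1 windows lie at chrIV:6336907-6337007, chrIV:4660494-4660594 and chrIV:4750027-4750127, and the cluster 2 windows at chrIV:14033792-14033892, chrIV:16389228-16389328 and chrIV:17087577-17087677. Capitals mark the word GAGAC or its reverse complement GTCTC, which was picked out after the windows were seen and is described with its background further on.
cluster 1 rank 30: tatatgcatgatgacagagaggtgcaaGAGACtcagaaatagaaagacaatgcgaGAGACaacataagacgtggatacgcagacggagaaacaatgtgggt
cluster 1 rank 58: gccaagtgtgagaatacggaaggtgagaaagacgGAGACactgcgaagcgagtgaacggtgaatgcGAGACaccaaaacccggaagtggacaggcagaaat
cluster 1 rank 78: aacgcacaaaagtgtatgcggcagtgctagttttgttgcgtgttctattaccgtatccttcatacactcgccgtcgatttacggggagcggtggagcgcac
cluster 2 rank 200: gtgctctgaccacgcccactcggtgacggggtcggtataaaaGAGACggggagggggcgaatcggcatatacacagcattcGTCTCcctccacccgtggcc
cluster 2 rank 213: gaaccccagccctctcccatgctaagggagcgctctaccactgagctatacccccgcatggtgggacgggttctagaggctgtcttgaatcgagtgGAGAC
cluster 2 rank 279: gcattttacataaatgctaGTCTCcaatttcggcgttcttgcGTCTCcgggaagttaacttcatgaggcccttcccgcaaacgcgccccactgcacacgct
None of these 6 windows overlaps a piRNA start, and each occurs once in the assembly.

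The clusters hold most of the piRNA genes of the genome, and cluster 2 is sparse in protein-coding genes. Of 15363 annotated piRNA genes, 14714 lie on chromosome IV (95.8%), 2816 of them in cluster 1 and 11388 in cluster 2. That is 1126 piRNA genes per Mb in cluster 1 and 3078 in cluster 2, against 45.2 in the rest of the chromosome. Cluster 1 also holds 482 protein-coding genes (193 per Mb), cluster 2 holds 459 (124 per Mb) and the rest holds 2340 (207 per Mb). The bases of cluster 2 are the most AT-rich, with a GC content of 32.3%, against 34.0% in cluster 1 and 35.5% in the rest.

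Peak density did not follow piRNA gene density from one cluster to the other. Cluster 1 held 337 pooled peaks per Mb (95% exact Poisson interval 314 to 360) and cluster 2, with far more piRNA genes, held 246 (230 to 262). The rest of chromosome IV held 277 per Mb (268 to 287), which put cluster 1 at 1.21 and cluster 2 at 0.886 of that level. Replicate 3 gave 328, 246 and 284 peaks per Mb in cluster 1, cluster 2 and the rest, and replicate 4 gave 332, 254 and 274. The order of the 3 regions was the same in all 3 lists. The intervals cover the counting of peaks only, and with 2 replicates the spread between animals cannot be tested.

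The rest of the chromosome was itself uneven, which limits any single ratio. The 4.5 Mb left of cluster 1 held 178 pooled peaks per Mb (166 to 191). The 6.5 Mb between the clusters held 340 (326 to 354), with an interval that overlaps that of cluster 1. The short stretch right of cluster 2 held 419 (348 to 499). Cluster 2 therefore lay below both of its flanks and cluster 1 was level with the stretch on its right, in the pooled list and in both replicate lists.

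**Figure D1:**
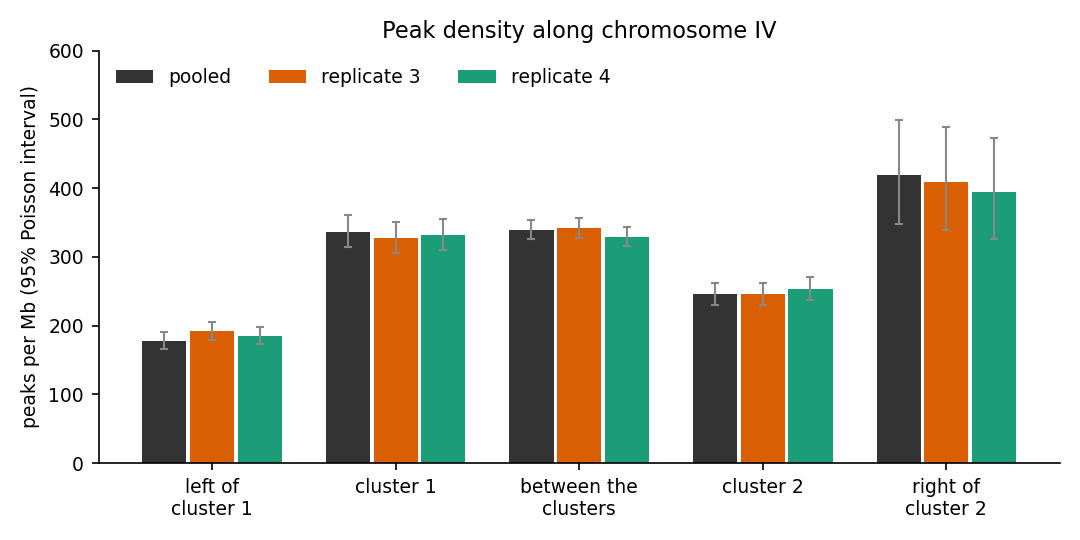
Peaks per Mb (vertical axis) in 5 stretches of chromosome IV, from left to right, in the pooled, replicate 3 and replicate 4 lists; error bars are 95% exact Poisson intervals. In the pooled list cluster 1 held 337 per Mb, close to the 340 between the clusters, and cluster 2 held 246.

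At the edges of the rule, peak counts changed less than piRNA gene counts. In strips of 250 kb, the left edge of cluster 1 had 80 pooled peaks inside and 75 outside, with 2 and 9 piRNA genes. Its right edge had 91 peaks inside and 93 outside, with 112 and 25 piRNA genes. The left edge of cluster 2 had 63 peaks inside and 67 outside, although piRNA genes numbered 428 inside and 5 outside. The right edge of cluster 2 had 53 peaks inside and 103 outside, with 443 and 169 piRNA genes. Peaks were thus fewer on the piRNA-rich side of that last edge, and replicate 3 (51 and 101) and replicate 4 (59 and 97) showed the same.

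Along the clusters, neighbouring summits lay a median of 1980 bp apart in cluster 1 and 2399 bp in cluster 2, against 1977 bp in the rest. The widest gaps between summits were 56513 bp in cluster 1, with 28 piRNA genes inside, and 41460 bp in cluster 2, with 143. Windows of 250 kb varied widely too. The 10 windows of cluster 1 held 61 to 115 pooled peaks (median 81.5), the 14 windows of cluster 2 held 41 to 87 (median 62.5), and 44 windows of the rest held 11 to 108 (median 77). The Spearman correlation between peaks and piRNA genes per window was 0.49 over the 10 windows of cluster 1 and 0.42 over the 14 of cluster 2. Replicate 3 gave 0.38 and 0.36, and replicate 4 gave 0.35 and 0.26. For the 4000 strongest pooled peaks the same values were 0.037 and 0.069. These are descriptions: windows share the libraries and the annotation, neighbouring windows are not independent, and the numbers are small. Over all 69 windows of the chromosome the correlation with piRNA genes was 0.30 (Pearson's r −0.014) and that with protein-coding genes was 0.45. Inside the clusters the correlation with protein-coding genes was −0.66 in cluster 1 (−0.81 in replicate 3 and −0.53 in replicate 4) and −0.017 in cluster 2.

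**Figure D2:**
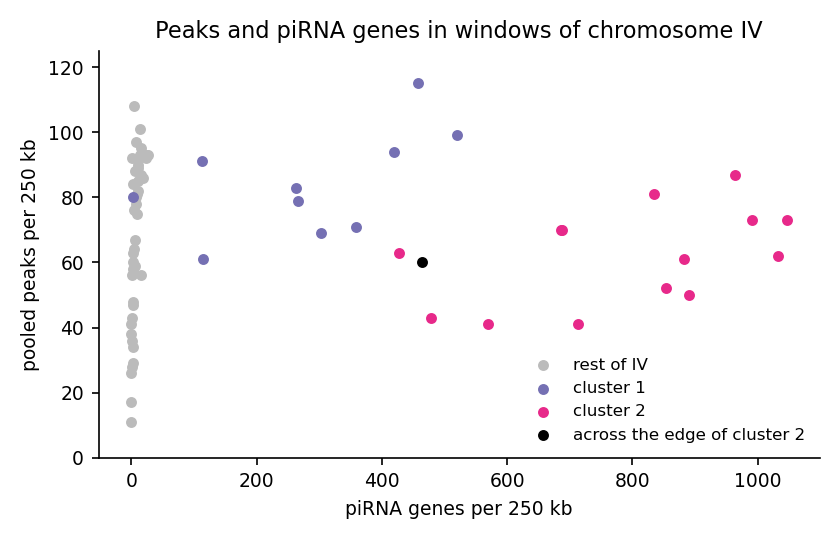
Pooled peaks (vertical axis) against piRNA genes (horizontal axis) in 250-kb windows of chromosome IV; each point is 1 window, coloured by region. Windows of the rest of the chromosome cover 11 to 108 peaks with at most 26 piRNA genes, and the 14 windows of cluster 2 hold 41 to 87 peaks with 428 to 1047 piRNA genes.

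Peaks in the clusters were of ordinary strength or slightly below. The deposited signal had a median of 44.2 in cluster 1 (quartiles 38.1 and 52.8), 43.1 in cluster 2 (37.8 and 51.3) and 44.4 in the rest (38.1 and 54.9). As a percentile of the list, where 50 is the middle peak, the medians were 48.9, 44.9 and 49.5. Signal scales differ between lists, so only percentiles were set side by side. These were 47.3, 42.4 and 50.01 in replicate 3 and 47.7, 45.7 and 51.1 in replicate 4, with cluster 2 lowest each time. The rest was uneven here too: the median percentile in the pooled list was 54.9 left of cluster 1, 47.8 between the clusters and 43.7 right of cluster 2. That last value, from 123 peaks, is below cluster 2 itself in the pooled list only. The same stretch had 45.98 in replicate 3 and 51.7 in replicate 4, both above cluster 2. Cluster 2 was also sparse in strong peaks. The strongest 4000 pooled peaks numbered 34.0 per Mb in cluster 1 and 22.4 in cluster 2, against 38.8 in the rest, ratios of 0.877 and 0.578. Cluster 1 was thus above the rest over all pooled peaks but not over the strongest, with ratios of 0.814 and 0.791 in the strongest 1000 and 400, where cluster 2 had 0.495 and 0.458. These rest on 20 and 7 peaks of cluster 1, whose counting intervals include the level of the rest, and on 18 and 6 of cluster 2. In replicates 3 and 4 the cluster 1 ratio was 0.887 and 0.629 in the strongest 1000, and 0.982 and 1.03 in the strongest 400. In the replicate lists the strongest 4000 numbered, per Mb, 38.8, 20.8 and 36.3 in replicate 3 and 34.8, 28.4 and 37.4 in replicate 4, so that cluster 2 was lowest in all 3 lists and cluster 1 differed from the rest by less than its counting interval. The highest signal was 250 in cluster 1 and 134 in cluster 2, against 294 in the rest.

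The peaks in the clusters lay near piRNA starts about as often as the bases of the clusters do. In cluster 1, 146 of 842 summits lay within 100 bp of a piRNA start, or 17.3% (95% Wilson interval 14.9 to 20.04), and 17.0% of all bases of that cluster lie that close. For cluster 2 it was 392 of 910, or 43.1% (39.9 to 46.3), against 38.5% of bases, a ratio of 1.12. Outside the clusters it was 21 of 3134 summits, or 0.670%, against 0.801% of bases. Replicate 3 gave 17.3% in cluster 1 and 40.2% in cluster 2, and replicate 4 gave 17.7% and 42.7%. The interval of the cluster 1 share includes the share of bases in all 3 lists. That of cluster 2 lies above it in the pooled list and in replicate 4 (39.6 to 45.9), but includes it in replicate 3 (37.02 to 43.4). The median distance to the nearest piRNA start was 487 bp in cluster 1 and 128 bp in cluster 2, where the median base lies 582 and 155 bp away.

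The surplus in cluster 2 was among weaker peaks, and few of the strongest peaks lay near piRNA starts. In cluster 2, 0 of the 18 members among the strongest 1000 pooled peaks lay within 100 bp of a piRNA start, with an upper Wilson limit of 17.6%. The share was 13 of 65 (20%) at ranks 1001 to 4000, 62 of 164 (37.8%) to rank 10000, 145 of 328 (44.2%) to rank 20000 and 172 of 335 (51.3%) to rank 30000. It increased at each step and passed the share of bases, 38.5%, only beyond rank 10000. In cluster 1 the same shares were 2 of 20 (10%), 5 of 65 (7.69%), 29 of 173 (16.8%), 57 of 295 (19.3%) and 53 of 289 (18.3%), beside 17.0% of bases. Signal and nearness could also be read the other way: in cluster 2, 3.32% of peaks near a piRNA start were among the strongest 4000, against 13.5% of those farther away. Replicate 3 gave 2.74% and 12.3%, and replicate 4 gave 5.74% and 15.2%. In cluster 1 the shares were 4.79% and 11.2% in the pooled list, but 10.6% and 12.1% in replicate 3 and 8.16% and 10.98% in replicate 4. The gap in cluster 1 was thus smaller in each replicate than in the pooled list.

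**Figure D3:**
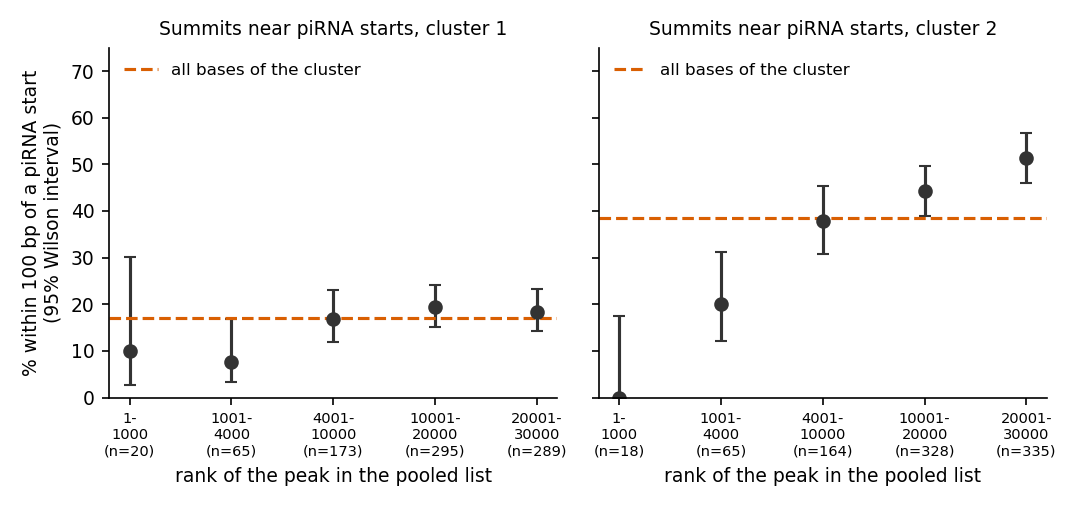
Share of summits within 100 bp of a piRNA start (vertical axis, percent) by rank of the pooled peak (horizontal axis, strongest at left); bars are 95% Wilson intervals and the dashed line is the share of all bases. In cluster 2 the share goes from 0 of 18 to 51.3% and in cluster 1 from 2 of 20 to 18.3%.

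Base composition moved with both measures. The mean GC content of the 151 bases around the summit was 29.0% for cluster 2 peaks near a piRNA start and 38.3% for the others, and 43.3% for the members among the strongest 4000. In cluster 1 these means were 29.7%, 37.0% and 40.6%. The part of base composition in the result was not tested.

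Read from the genes, piRNA units were under summits about as often as the cluster around them. In cluster 1, 205 of 2816 piRNA genes had a pooled summit within 100 bp of their start, or 7.28% (6.38 to 8.30), and 6.77% of the cluster's bases lay as close to a summit. The count in cluster 2 was 648 of 11388, or 5.69% (5.28 to 6.13), against 4.94% of bases. Neighbouring piRNA genes share summits, since the 648 genes of cluster 2 stand for 392 peaks, so these intervals are too narrow. A summit that close in the pooled list and in both replicate lists was found at 40 piRNA genes of cluster 1 (1.42%) and 119 of cluster 2 (1.04%). In the rest of chromosome IV it was found at 1 of 510 (0.196%). The share of bases that close to a summit in all of these lists was not counted, so these shares cannot be called low or high.

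The piRNA genes with the exact Ruby core were not the ones under summits more often. The core lay in the 60 bases upstream of 1117 piRNA genes in cluster 1 (39.7%) and 3827 in cluster 2 (33.6%), with a median of 46 bases from its first base to the start. In cluster 1, 7.61% of genes with the core and 7.06% without it had a pooled summit within 100 bp. The shares in cluster 2 were 5.38% and 5.85%. Genes without the exact core can hold a copy with a changed letter, as some of the loci printed above do. The comparison therefore does not separate piRNA genes with an upstream motif from those that lack one. Read from the peaks, CTGTTTCA on either strand lay within 75 bp of 60 of 842 summits in cluster 1 (7.13%), where 7.52% of all windows of 151 bases hold it. It lay that close to 142 of 910 summits in cluster 2 (15.6%), where 13.5% of windows hold it. The interval of the cluster 2 share (13.4 to 18.1) just includes that of windows. Among the strongest 4000 it was at 2 of 85 summits in cluster 1 and 6 of 83 in cluster 2.

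Summits were spread evenly around piRNA starts. Counted in steps of 100 bp from 1000 bp upstream to 1000 bp downstream, cluster 1 had 3.16 to 4.12 pooled summits per 100 piRNA genes in each step, with 3.55 in the step before the start and 3.73 in the step after it. Cluster 2 had 2.44 to 3.07, with 3.02 before the start and 2.67 after it. Each pair of a summit and a start was counted. Where starts are dense, a summit therefore enters several steps, which can even out a profile. The starts of tRNA, snoRNA and snRNA genes, which encode the stable small RNAs of translation, RNA modification and splicing, served as a comparison inside the same clusters. These genes are far fewer, so the shapes of the profiles are not fully comparable. At the 48 such genes of cluster 2, the step after the start held 18.8 summits per 100 genes, and the step before it 14.6, where the median step held 3.13. At the 27 of cluster 1, the step before the start held 22.2 and the step after it 3.70, the same as the median step, while steps 100 to 200 bp and 600 to 700 bp downstream held 14.8 each. In replicate 4 the highest step of cluster 1 held 11.1, and with 27 genes each step there rests on 6 summits or fewer.

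**Figure D4:**
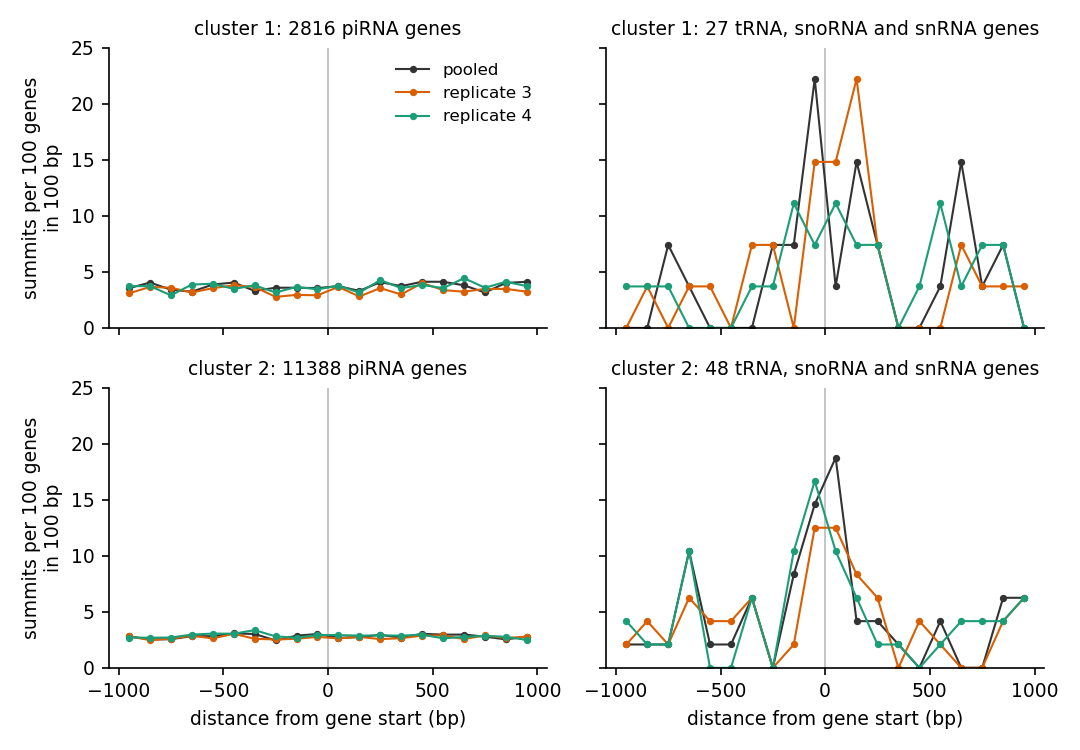
Summits per 100 genes in steps of 100 bp (vertical axis) by distance from the gene start (horizontal axis, bp, negative upstream), for piRNA genes (left) and for tRNA, snoRNA and snRNA genes (right), in cluster 1 (top) and cluster 2 (bottom); lines are the 3 lists. In the pooled list, piRNA genes stay between 2.44 and 4.12 throughout, and the other small RNA genes reach 22.2 in cluster 1 and 18.8 in cluster 2 beside the start. A summit is counted once for each start within range.

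By kind of gene, tRNA genes had the highest share under a summit in both clusters. A pooled summit lay within 100 bp of the start of 4 of 9 tRNA genes in cluster 1 and 12 of 32 (37.5%) in cluster 2, and of 13 of 30 (43.3%) in the rest of the chromosome. For snoRNA genes, which guide RNA modification, the counts were 2 of 10, 2 of 8 and 12 of 41. For snRNA genes, which act in splicing, they were 1 of 8, 2 of 8 and 5 of 25. For miRNA genes, they were 0 of 9, 0 of 10 and 3 of 31. Genes annotated only as non-coding RNA had 22 of 231, 14 of 90 (15.6%, where 4.94% of bases lay as close) and 80 of 737. In cluster 2 that class had 17 of 90 in replicate 3 and 15 of 90 in replicate 4. Pseudogenes had 5 of 52, 11 of 123 and 12 of 206. Protein-coding genes were near the level of bases, at 36 of 482 (7.47%) in cluster 1 and 18 of 459 (3.92%) in cluster 2. In replicate 3, 10 of the 32 tRNA genes of cluster 2 had a summit that close, and in replicate 4, 11 did.

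Members were in coding exons and at small RNA starts more often, and in intergenic sequence less often, than the bases of the clusters. Promoters of protein-coding genes, from 500 bp before to 100 bp after a transcript start, held 14.4% of summits in cluster 1, where they cover 14.1% of bases, and 10.7% in cluster 2, where they cover 9.81%. In the rest of the chromosome they held 17.5% of summits on 15.6% of bases. Coding exons held 23.8% of summits (21.002 to 26.7) on 19.99% of bases in cluster 1 and 15.8% (13.6 to 18.3) on 11.3% in cluster 2. Intergenic sequence held 26.1% (23.3 to 29.2) on 31.8% and 43.3% (40.1 to 46.5) on 49.1%. Starts of tRNA, snoRNA and snRNA genes held 7 summits in cluster 1 and 16 in cluster 2, which was 3.83 and 6.80 times their share of bases. The rest of the chromosome had like ratios, with 29.4% of summits in coding exons on 22.7% of bases, 21.9% in intergenic sequence on 25.1%, and 5.66 times the share of bases at small RNA starts. Among the strongest 4000 peaks, promoters held 22.4% of the members in cluster 1 and 15.7% in cluster 2, against 19.9% in the rest. That was 1.58, 1.60 and 1.27 times their share of bases, on 19, 13 and 87 peaks. Counted by gene, 115 of 482 protein-coding genes in cluster 1 (23.9%) and 90 of 459 in cluster 2 (19.6%) had a pooled summit in the promoter, close to the 23% of all protein-coding genes of the genome.

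Over all peaks, those of cluster 2 were found again in both replicates less often than those of the rest, but not at like strength. A pooled peak counted as found in a replicate when it overlapped a peak of that replicate's list by at least 1 bp. That held for both replicates at 369 peaks in cluster 1, or 43.8% (40.5 to 47.2), 364 in cluster 2, or 40.0% (36.9 to 43.2), and 1399 in the rest, or 44.6% (42.9 to 46.4). Over all 30000 pooled peaks it was 45.9%, so that cluster 1 was near the background and cluster 2 below it. The intervals of the clusters overlap each other. In the strongest 10000 pooled peaks the share was 81.4% in cluster 2 and 80.5% in the rest, and in the weaker 20000 it was 24.6% (21.5 to 28.0) and 26.4% (24.6 to 28.4). The weaker group held 663 of the 910 peaks of cluster 2 and 2078 of the 3134 of the rest. The interval of the difference from the rest also included 0 when at least 50% of the pooled peak had to overlap, when summits had to lie within 100 bp, and with replicate 4 alone. It excluded 0 with replicate 3 alone (−4.32 points) and with edges moved inward by 250 kb (−6.10). It also excluded 0 against the other autosomes (−6.19) and without summits at other small RNA genes (−4.81). Replicate 3 alone covered 68.4%, 67.3% and 71.6% of the peaks of cluster 1, cluster 2 and the rest, and replicate 4 covered 70.4%, 66.5% and 68.1%. The pooled list was made from both replicates together, so these shares are not independent replication.

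Over all strengths, peaks near piRNA starts were in both lists less often than the others. In cluster 1, 35.6% of peaks within 100 bp of a piRNA start were in both lists, against 45.5% of the others. Those in cluster 2 were 35.5% and 43.4%. Among the strongest 10000 pooled peaks they were 75% and 80.6% in cluster 1 and 82.7% and 80.8% in cluster 2, and 80.5% in the rest. Among the weaker 20000 they were 22.7% and 29.1% in cluster 1 and 24.3% and 24.9% in cluster 2. At like strength the gap was nearly gone among the weaker peaks of cluster 2 and reversed among the strong ones, while in cluster 1 most of it remained, with intervals that overlap.

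**Figure D5:**
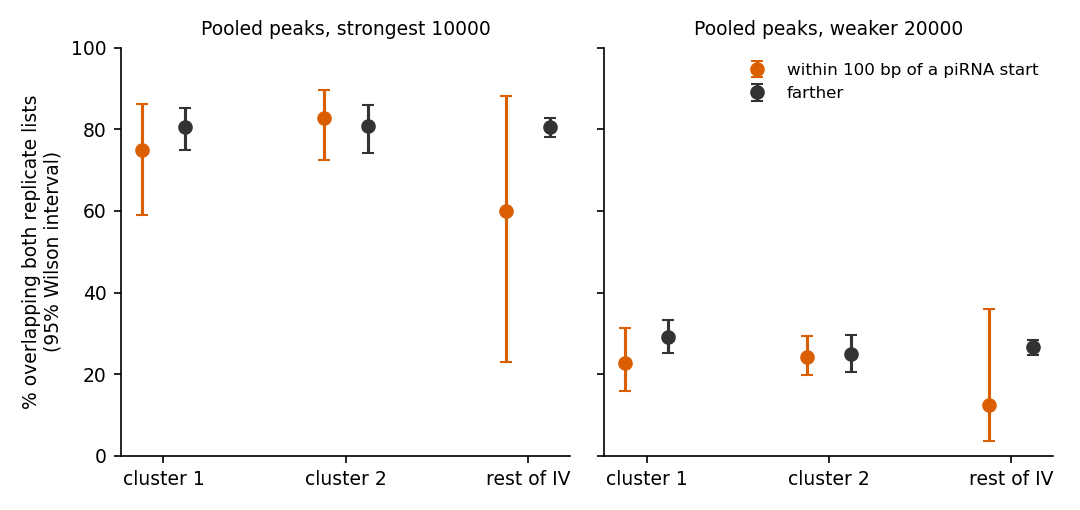
Share of pooled peaks that overlapped a peak of both replicate lists (vertical axis, percent) in each region, for the strongest 10000 peaks (left) and the weaker 20000 (right), near a piRNA start or farther; bars are 95% Wilson intervals. In cluster 2 the shares near and far were 82.7% and 80.8% for strong peaks and 24.3% and 24.9% for weak ones.

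Where a member was in both lists, its signals in the replicates were weakly related. Pearson's r of the log2 signals was 0.38 over 369 peaks in cluster 1 (Spearman's rho 0.19), 0.32 over 364 in cluster 2 (0.21) and 0.39 over 1399 in the rest (0.27). These are correlations across peaks of the same 2 libraries, over peaks that had passed the cut of both lists.

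The deposited list thresholded by the irreproducible discovery rate (IDR) had 400 peaks, and these were exactly the 400 strongest pooled peaks. It held 7 of the 842 peaks of cluster 1 (0.831%) and 6 of the 910 of cluster 2 (0.659%). It held 40 of 3134 in the rest (1.28%) and 1.33% of all pooled peaks. None of the 13 lay within 100 bp of a piRNA start. Their distances to the nearest one ran from 305 to 30240 bp.

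In cluster 1 the strongest peaks sat upstream of protein-coding genes. The strongest, at 696 bp upstream of ipla-6, a gene named as a phospholipase, had a pooled signal of 250 (rank 30), with 103 in replicate 3 and 149 in replicate 4. The second, 343 bp upstream of F29B9.11, had 202 (rank 58), with 132 and 62.9 in the replicates. Next came peaks in the promoters of Y17G9B.5 (177), Y73B6BL.29 (175), C49A9.10 (143), W03F8.4 (112) and C17H12.2 (110.0), and these 7 were the IDR peaks of the cluster. All 7 were ranked in the first 1250 of both replicate lists. The next members were a peak in the promoter of T05A12.4 (101) and peaks at the tRNA genes B0350.t1 (100.1) and C43G2.t1 (96.7). The peak at B0350.t1 was uneven between replicates, with rank 18987 in replicate 3 and rank 336 in replicate 4.

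In cluster 2 the strongest peaks were weaker and sat at non-coding RNA genes as well as promoters. The strongest lay 24 bp inside the non-coding RNA gene Y37A1B.333 (chrIV:14033652-14034031), with a pooled signal of 134 (rank 200), 74.95 in replicate 3 and 51.2 in replicate 4. The second lay at the tRNA gene Y7A9D.t2, with 132 (rank 213), 48.7 and 80.4. The third, 189 bp upstream of snx-13, a gene named as a sorting nexin of membrane traffic, had 121 with 60.4 in replicate 3 and no overlapping peak in replicate 4. The other IDR peaks were at Y7A9D.66 (117), lin-66 (114), a gene of developmental timing, and 241 bp upstream of a protein-coding gene with a sequence name only (109, chrIV:15646561-15646940). Below the IDR threshold came tlp-1 (103), a zinc finger gene of tail development, and dmd-6 (99.1), a gene of the doublesex family whose start lay 2235 bp away. They were followed by an intergenic peak (96.6, chrIV:15570665-15571044) and the tRNA gene Y105C5B.t2 (95.3). The intergenic peak lay 380 bp from the nearest piRNA start and 3516 bp from the nearest start of any other gene.

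The strongest peaks within 100 bp of a piRNA start lay in several kinds of sequence. The peak at 21ur-5229 (signal 100.1, rank 502), printed first above, is the peak at the tRNA gene B0350.t1. The peak 83 bp upstream of 21ur-11261 (88.0) lay in a protein-coding promoter, and those at 21ur-11489 (84.6) and 21ur-9844 (74.5) lay in introns. In cluster 2 the peak at 21ur-582 (83.4, rank 1148), the locus with the full Ruby core, was intergenic. Its signal was 33.3 in replicate 3 (rank 6222) and 48.5 in replicate 4 (rank 897). The peak at 21ur-11953 (81.1) was intergenic as well, that at 21ur-10453 (77.1) lay in an exon of another gene and that at 21ur-8848 (73.9) in an intron. For comparison, 39.6% of all piRNA genes of cluster 1 and 61.9% of those of cluster 2 start in intergenic sequence, and 45.6% and 29.01% start in introns.

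The word GAGAC marked in the strongest windows was more frequent under strong members than in the clusters at large. It was picked after those windows were seen, and their peaks are among those counted here, so part of the excess is built in and the counts are a description. Within 75 bp of the summit and on either strand, it was found in 27.1% of the members among the strongest 4000 in cluster 1 (23 of 85) and 38.6% in cluster 2 (32 of 83), and in 27.9% in the rest. Of all windows of that length, 17.1% hold it in cluster 1, 13.3% in cluster 2 and 16.9% in the rest. In cluster 2 it was under 9.69% of summits near a piRNA start and 23.0% of the others. In replicate 3, 7.67% and 23.7% of the cluster 2 summits held it. Strong members were also richer in GC, with means of 40.6% in cluster 1 and 43.3% in cluster 2. The bases of the clusters have 34.0% and 32.3%, and the part of base composition in these counts was not tested.

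The genes of the piRNA pathway were also looked up as possible binding targets, wherever they lie. Of the 22 annotated members of a list of 25 names covering piRNA transcription, processing and the Piwi complex, 4 had a pooled summit in the promoter (18.2%), beside 23% of all protein-coding genes. The strongest was at tofu-1, a gene found in a screen for piRNA biogenesis, with a pooled signal of 106 (rank 418), 70.2 in replicate 3 and 42.3 in replicate 4. The others were henn-1, the methyltransferase of piRNA ends (50.4), unc-130, a forkhead factor tied to piRNA expression (40.3, with none in replicate 3), and erh-2, a subunit of the piRNA processing complex (40.02, with none in replicate 4). No pooled summit lay in the promoters of prg-1, prde-1 or snpc-4, the genes of the Piwi protein and of the upstream factors. Replicate 3 alone had summits in the promoters of tofu-2 (signal 27.7, rank 12363) and snpc-4 (19.8, rank 29214). With promoters of 1000 bp before to 200 bp after the start, 7 of the 22 genes had a pooled summit (31.8%), beside 37.4% of all protein-coding genes.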

How the data were processed

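AKIR-1::GFP ChIP-seq peak lists of 2 biological replicates (1 group) were used. The authors deposited 4 lists on ce11, per the labels: 1 for each replicate, 1 for both replicates pooled and 1 thresholded by IDR. For the aligner, the peak caller, the control and the IDR cut-off, names and versions were not given in the sources used here. Each peak has a signal value from the authors, whose scale is not stated; it served only to rank and describe peaks. The authors also deposited −log10 q-values, converted here to q-values and only described. Depth is unknown, since peak lists hold no read counts, so the precision given is that of counting peaks.

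Genes came from Ensembl release 115 (WBcel235) and sequence from the RefSeq assembly. Each list of 30000 peaks includes weak peaks. Summits were the start plus the deposited offset. Nearness to a start meant at most 100 bp. Intervals cover 95% (exact Poisson for densities, Wilson for shares) and counting error only. Scripts used Python 3.11.15, numpy 2.4.6, pandas 2.3.3 and scipy 1.17.1, and were checked on simulated data. No sample was left out, and 0 value columns lacked a sample or group.

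The members, gene lists and alternatives were chosen with earlier results of these data known. Named are the 10 strongest pooled peaks and all IDR peaks of each cluster, with the nearest gene other than a piRNA gene. Also named are the 4 piRNA genes per cluster within 100 bp of the strongest summits, and pathway genes with a promoter summit. Alternatives were single replicate lists, the strongest 10000 peaks, other distances, windows, overlaps, promoters, cluster edges, merged peaks and comparison chromosomes, and leaving out summits near other small RNA genes.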

Additional observations from a re-analysis of the deposited data

How the results depend on the processing

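Of 95 values under alternatives, 75 stayed within the spread set for the value reported and 20 did not. For values with an interval, that spread was the counting interval. Density ratios, percentile differences and the pathway count had none, and a factor of 1.5 was used. For densities that factor is wider than counting error, so a density ratio within it can still differ by more than counting error. Density ratios to the rest of chromosome IV ran from 1.10 to 1.23 in cluster 1 and 0.714 to 0.926 in cluster 2 over these alternatives (1.16 to 1.21 and 0.865 to 0.926 in the single replicate lists); the strongest 4000 gave 0.877 and 0.578. The median percentile of cluster 1 minus that of the rest was −0.67, and became −2.57 in the strongest 10000 peaks, −2.44 with edges moved inward by 250 kb, −1.26 against the other autosomes and −3.43 to −2.69 in the replicate lists; for cluster 2 it was −4.66, and −7.65 to −5.45 in the replicate lists. The share of summits within 100 bp of a piRNA start over that of bases became 0.822 (cluster 1) and 0.790 (cluster 2) in the strongest 10000 peaks. In peaks of both replicate lists, an alternative chosen after seeing the data, it became 0.831 and 0.993. The replicate lists gave 1.02 to 1.04 and 1.04 to 1.11. In cluster 2 the interval of this ratio stayed above 1 within 50 bp (1.17) and within 250 bp (1.08). The same held with edges moved inward (1.09), without summits in protein-coding promoters (1.15) and without those at other small RNA genes (1.14). In cluster 1 the interval included 1 under each of these settings. Within 500 bp, a distance outside these alternatives, the ratio was 1.13 in cluster 2, about as large as within 100 bp. The surplus was thus not confined to the bases closest to the starts. Within 500 bp the rest of chromosome IV had a ratio of 1.16, with a share (3.27 to 4.63%) whose interval includes that of bases, 3.35%. The share of cluster 2 peaks in both lists minus that of the rest was −4.64 points. It ran from −6.19 against the other autosomes to 0.884 in the strongest 10000. With peaks of like strength the regions' intervals overlap. The percentage of piRNA genes with a summit near, 7.28 and 5.69, became 1.70 and 1.12 with the strongest 10000 peaks, 4.23 and 2.93 within 50 bp, and 17.5 and 13.8 within 250 bp, as the construction sets. The ratio for the Ruby core became 0.619 and 0.932 in the strongest 10000, from 0.948 and 1.16; in cluster 2 its interval excluded 1 with replicate 3 alone (1.18), without summits at other small RNA genes (1.19) and within 150 bp (1.15). With promoters widened to 1000 bp before and 200 bp after the start, 7 pathway genes had a summit (31.8%, beside 37.4% of all protein-coding genes); the replicate lists gave 3 to 5. The cause of the other changes was not tested.

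No paired analysis was possible because all samples belong to 1 group. With 2 replicates and peak lists alone, counting error is the only error available, and weak peaks, most of each list, limit every share over all peaks.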
